A study of Mus musculus with 12 samples.

Results

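The RNAs described here are 7 long noncoding RNAs of mouse Th9 cells, *Neat1*, *Malat1*, *H19*, *Gas5*, *Snhg12*, *Mir155hg* and *Dleu2*, taken by gene symbol from a table of 32051 genes. The rule named 9 symbols, and *Snhg1* and *Mir17hg* were not analysed here. Of these, 2 were chosen by their measured FPKM in these libraries, *Neat1* for a response to the compound EpA that differed when fatostatin was present and *H19* for a rise with EpA. The values behind that choice are therefore given as a description, without a test. Tests are given for the other 5 RNAs.

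The values are FPKM, fragment counts scaled by exon length and by a fragment total for each library, with 1 value per gene and library and none per isoform or strand. Naive CD4+ T cells from the spleens of C57BL/6J mice, 6 to 8 weeks of age by the study's methods, were activated with antibodies to CD3 and CD28 and driven towards Th9 cells, the T helper cells that make interleukin-9, using IL-4 (10 ng/mL) together with TGF-β (1 ng/mL). All 4 groups shared this culture, and RNA was taken on day 4. The groups, of 3 libraries each, received the vehicle DMSO, EpA at 10 μM, a cyclic lipopeptide from an endophytic fungus, fatostatin at 5 μM, an inhibitor of the lipid-regulating transcription factors SREBP, or EpA and fatostatin together. The labels do not say whether the libraries of a group came from separate mice or cultures, so the p-values measure only the spread between these samples.

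Long noncoding RNAs act in several ways. *Neat1* is the architectural RNA around which the nuclear bodies called paraspeckles assemble, and its neighbour *Malat1* is an abundant RNA of nuclear speckles, where splicing factors are held. *H19* is transcribed from the maternal allele of an imprinted locus and is the precursor of miR-675. *Gas5* and *Snhg12* carry small nucleolar RNAs, guides of ribosomal RNA modification, in their introns. *Mir155hg* is the precursor of miR-155, which is induced when lymphocytes are activated, and *Dleu2* is the host of miR-15a and miR-16.

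The mature microRNAs made from 3 of the RNAs are shown because they are the known products of these hosts, and lists of genes known as targets of miR-155 and of miR-15 and miR-16 are described further on. The sequences are from RefSeq on GRCm38.p6, and capitals mark the seed, bases 2 to 8, which pairs with targets.
mmu-miR-155-5p: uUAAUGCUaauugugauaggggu
mmu-miR-155-3p: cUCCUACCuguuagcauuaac
mmu-miR-675-5p: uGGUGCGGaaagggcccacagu
mmu-miR-675-3p: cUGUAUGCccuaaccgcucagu
mmu-miR-15a-5p: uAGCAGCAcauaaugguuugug
mmu-miR-16-5p: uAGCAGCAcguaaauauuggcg
The miR-155 hairpin, chr16:84714140-84714204 on the plus strand, lay with all 65 bases on an exon of *Mir155hg*. The miR-675 hairpin, chr7:142577064-142577147 on the minus strand, lay with all 84 bases on an exon of *H19*. The 2 mature sequences from *Dleu2* share the seed AGCAGCA and lay in its introns on the minus strand, miR-15a-5p at chr14:61632075-61632096 and miR-16-5p at chr14:61631936-61631957. The mature microRNAs themselves were not measured in these libraries.

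The read totals by which the FPKM were scaled, recovered from the values themselves, were 36607305 to 44375791 per library, a range of 1.21-fold. T cell markers were abundant in each library. *Cd3d*, *Cd3e*, *Cd3g*, *Cd4*, *Cd28* and *Lck* summed to 574 to 585 FPKM with DMSO and 503 to 508 with EpA. Their sums were 557 to 574 FPKM with fatostatin and 481 to 485 with both. By contrast, 5 myeloid markers summed to 0.575 FPKM at most and 3 dendritic cell markers (*Flt3*, *Xcr1* and *Siglech*) to 0.281 FPKM at most. Of the CD8 T cell genes, *Cd8b1* was at 6.40 to 8.61 FPKM, and *Cd8a* had means of 1.81 FPKM with DMSO, 0.802 with EpA, 1.52 with fatostatin and 0.491 with both. *Cd79b*, a B cell gene, was at 4.66 to 7.43 FPKM. In bulk RNA, fewer cells of a type and less RNA per cell cannot be told apart.

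By level per length, *Gas5* ranked 5, *Mir155hg* 8 and *Malat1* 9 among the 537 long noncoding RNA genes tested, at means of 60.8, 48.7 and 46.6 FPKM over the 12 libraries. *Snhg12* ranked 26 at 11.6 FPKM, *Neat1* 34 at 8.06 FPKM and *Dleu2* 100 at 1.95 FPKM. *H19* stood at the other end, ranked 443 at 0.164 FPKM. The plot of levels by group shows all 7 RNAs in every library.

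**Figure D1:**
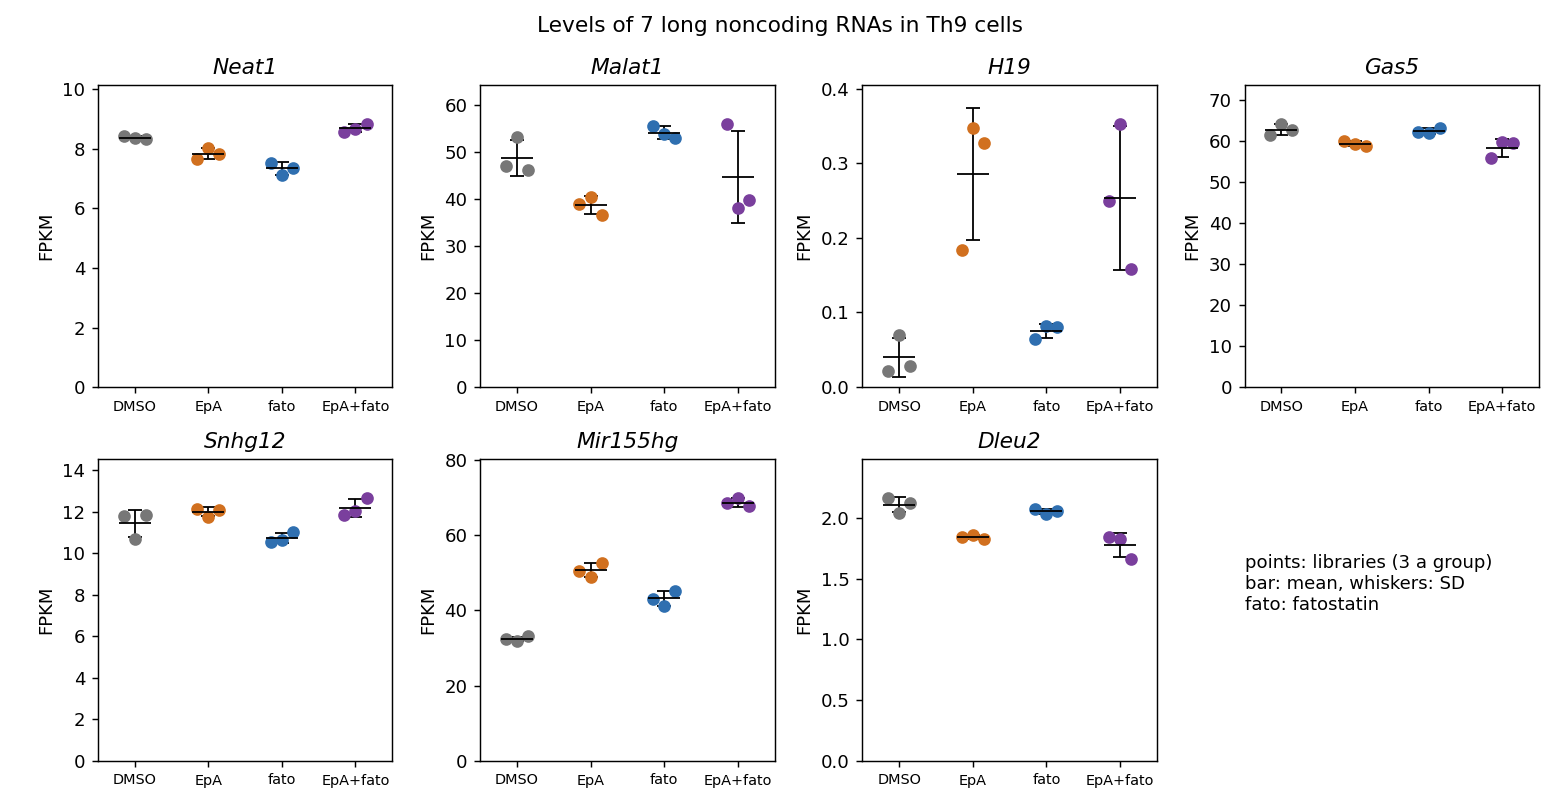
FPKM of the 7 long noncoding RNAs (vertical axes, each from 0) in the 12 libraries by group (horizontal axes), with points for libraries, bars for group means and whiskers for SD (n = 3). *Mir155hg* stepped up from 32.4 FPKM with DMSO to 68.6 FPKM with both compounds, *H19* was high only in the groups that received EpA, and 1 *Malat1* library of the combined group stood apart from the other 2.

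The nuclear RNA *Neat1* was lower with EpA alone than with DMSO, and higher with EpA than without it once fatostatin was present. *Neat1* was at 8.44, 8.38 and 8.31 FPKM with DMSO and at 7.64, 8.03 and 7.83 FPKM with EpA. With fatostatin it was at 7.53, 7.12 and 7.36 FPKM, and with both compounds at 8.55, 8.67 and 8.82 FPKM. All 3 EpA libraries lay below all 3 DMSO libraries, whereas all 3 libraries with both compounds lay above all 3 fatostatin libraries.

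The *Neat1* means were 8.38 ± 0.061 FPKM (SD, n = 3) in the DMSO group, 7.84 ± 0.19 in the EpA group, 7.34 ± 0.21 in the fatostatin group and 8.68 ± 0.13 in the combined group. Ordered from fatostatin through EpA and DMSO to both compounds, neighbouring groups did not overlap. The mean with EpA differed from that with DMSO by −6.44%, and the mean with both compounds was 18.3% above that with fatostatin alone. On the log2(FPKM + 0.1) scale these were differences of −0.10 ± 0.031 (SE) and 0.24 ± 0.031, and the effect of EpA with fatostatin exceeded the effect without it by 0.33 ± 0.044. This contrast was the one the rule used, so no p is given. Among all 13733 genes tested, 34 (0.248%) likewise showed EpA effects of opposite direction with no overlap between groups. The *Neat1* values rested on 5898 to 7549 reads per library.

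*Neat1* lies at chr19:5824708-5845478 on the minus strand of GRCm38, and the annotation counts the whole 20771 bp as 1 exon. The short and the long isoform start together and share the 5′ part, so a single gene value cannot separate them, and only the long form builds paraspeckles.

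The genes that followed *Neat1* most closely over the 12 libraries, by Pearson's r of log2(FPKM + 0.1), were *Il4* (r = 0.841), *Wdr5* (r = 0.813), *Ndufb4* (r = 0.808), *Rabl6* (r = 0.802) and *Galnt12* (r = 0.799), out of 10297 genes that averaged 1 FPKM or more. *Il4* encodes the type 2 cytokine interleukin-4, and its mean was 8.71 FPKM with DMSO, 8.78 with EpA, 7.15 with fatostatin and 9.10 with both. *Il4* and *Neat1* shared the lowest level with fatostatin and the highest with both compounds, but *Il4* showed no fall with EpA alone in its means. These correlations share the same libraries and groups and were picked as the highest of many, so they are a description.

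**Figure D2:**
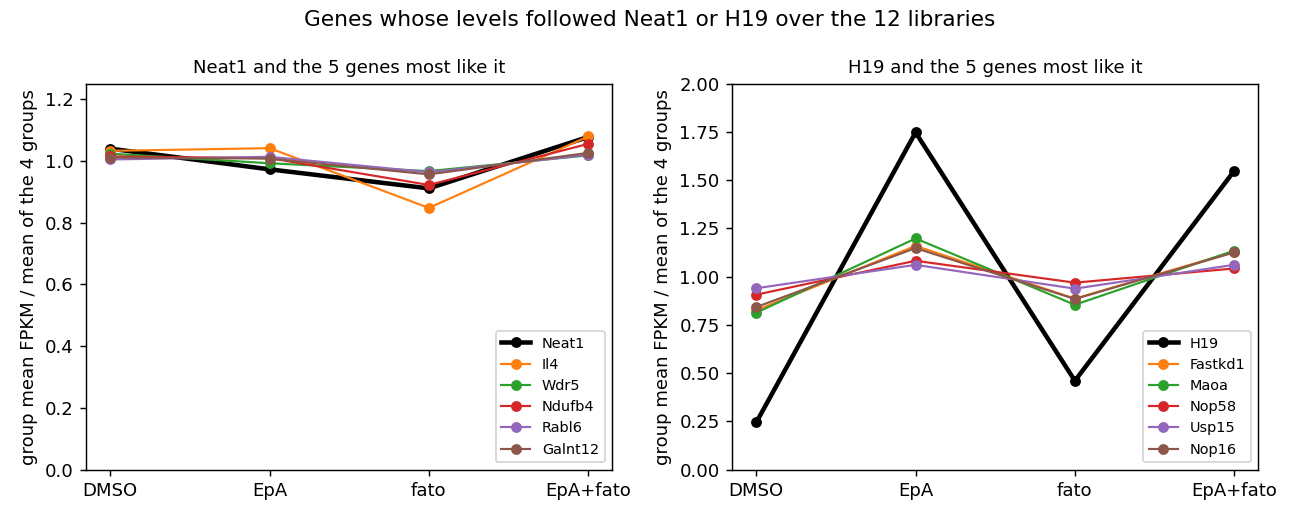
Group mean FPKM divided by the mean of the 4 groups (vertical axes) against group (horizontal axes) for *Neat1* (left, black) and *H19* (right, black), each with the 5 genes of highest correlation over the 12 libraries (colours). The *Neat1* set was lowest with fatostatin and the *H19* set was high in both groups that received EpA, with *H19* itself moving farther than the genes like it.

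The genes of paraspeckle proteins were all expressed and changed by small amounts in both directions. Of 22 genes on the list, 4 rose and 5 fell with EpA against DMSO, and 5 rose and 6 fell when EpA was added to fatostatin, while 27.4% and 29.5% of all genes tested were called in these comparisons at an adjusted p below 0.05 (limma). The list's median log2 difference was −0.00 with EpA, as it was for all genes at 0.00, and −0.03 against 0.01 with EpA added to fatostatin. *Tardbp*, which encodes the RNA-binding protein TDP-43, rose in both (0.16 ± 0.021, adjusted p = 0.00023, and 0.18 ± 0.021, adjusted p = 6.8e-05), and *Cirbp*, a cold-inducible RNA-binding protein, fell by 0.21 in both (SE 0.026, adjusted p = 0.000161 and 0.000148).

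With fatostatin against DMSO, 3 paraspeckle genes rose and 1 fell, and with both compounds against EpA 4 rose and 4 fell, where 14% and 16% of all genes were called. *Sfpq*, a core protein of paraspeckles that binds *Neat1*, rose with fatostatin from 122 to 133 FPKM (0.13 ± 0.019, adjusted p = 0.000844) and was lower with both compounds than with fatostatin alone, at 123 FPKM (adjusted p = 0.000903). Its partner *Nono* fell by 0.08 when fatostatin was added to EpA (SE 0.015, adjusted p = 0.00313). For none of the 22 genes did the effect of EpA with fatostatin differ from that without it at an adjusted p below 0.05, in a contrast where 0.0437% of all genes did (6 of 13733).

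*Malat1* was lower with EpA than with DMSO in every library, but the difference missed the threshold. *Malat1* was at 47.1, 53.3 and 46.2 FPKM with DMSO and at 38.9, 40.6 and 36.7 FPKM with EpA. With fatostatin it was at 55.7, 53.8 and 53.1 FPKM, and with both compounds at 56.0, 38.2 and 39.8 FPKM. The DMSO and EpA libraries did not overlap, and replicate 1 of the combined group lay at the fatostatin level while its other 2 libraries lay at the EpA level.

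The log2 difference of *Malat1* was −0.33 ± 0.12 for EpA against DMSO (adjusted p = 0.0534, limma, 95% interval −0.59 to −0.08) and −0.30 ± 0.12 for EpA added to fatostatin (adjusted p = 0.0732). Without replicate 1 of the combined group these became −0.33 (adjusted p = 0.00106) and −0.47 (adjusted p = 0.000248), and without its replicate 2 the first had an adjusted p of 0.0370. In all, the first passed in 6 of 21 alternatives, also with a minimum mean of 1 FPKM (adjusted p = 0.0390), median-ratio scaling (0.0494), a fit of these groups alone (0.00887) and voom (0.00279), and the second passed in 2 of 21, also with voom (0.00440). Replicate 1 of the combined group and replicate 1 of fatostatin had the lowest FPKM sums of the 12 libraries, 279720 and 280099, and listed the most genes above 0 among them, 16944 and 17006. Long noncoding RNAs as a class lay 0.03 above the other 2 libraries of the combined group in that replicate, in the median log2 value. The part of these library properties in the *Malat1* value was not tested. Fatostatin against DMSO gave a difference of 0.15 (adjusted p = 0.449, 95% interval −0.10 to 0.41), and both against EpA 0.19 (adjusted p = 0.329).

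*Malat1* lies at chr19:5795690-5802672 on the minus strand, 22036 bp from *Neat1*. The neighbours differed in the order of their groups, *Neat1* being lowest with fatostatin and *Malat1* highest there. Of the 12 tested genes within 100 kb of *Neat1*, *Malat1* among them, *Ehbp1l1* rose with EpA (0.16, adjusted p = 0.0166) and *Dpf2*, a chromatin remodelling subunit, fell by 0.11 (adjusted p = 0.00152). *Slc25a45* fell by 0.35 when EpA was added to fatostatin (adjusted p = 0.00694), as did *Frmd8*, the nearest of the tested neighbours at 4224 bp, by 0.08 (adjusted p = 0.0381) and *Dpf2* by 0.06 (adjusted p = 0.0415). These were 2 of the 12 with EpA and 3 of the 12 with EpA added to fatostatin, where 27.4% and 29.5% of all genes were called.

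The genes of splicing factors of nuclear speckles, the bodies that hold *Malat1*, also moved in both directions. Of 21 genes, 3 rose and 6 fell with EpA, 1 rose and 3 fell with fatostatin, 3 rose and 4 fell when fatostatin was added to EpA, and 2 rose and 3 fell when EpA was added to fatostatin. Over all genes 27.4%, 14%, 16% and 29.5% were called in these comparisons, in the same order. Their median log2 difference with EpA was −0.05 against 0.00 for all genes. *Srsf5* and *Srsf6*, SR proteins of splicing, fell by 0.15 each with EpA (adjusted p = 1.77e-05 and 0.000204), while *Tra2a*, a splicing activator, rose by 0.19 (adjusted p = 5.21e-05). *Clk1*, a kinase of SR proteins, rose with fatostatin (0.24 ± 0.029, adjusted p = 0.000181) and *Srsf2* and *Srsf3* fell by 0.15 each (adjusted p = 5.19e-05 and 0.000259).

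*H19* was near the detection limit without EpA and several-fold higher with it. *H19* was at 0.0222, 0.0696 and 0.0280 FPKM with DMSO, from 2, 7 and 3 reads, and at 0.184, 0.347 and 0.326 FPKM with EpA, from 18, 34 and 34 reads. With fatostatin it was at 0.0641, 0.0816 and 0.0803 FPKM, from 7, 8 and 8 reads, and with both compounds at 0.249, 0.352 and 0.159 FPKM, from 26, 36 and 16 reads. Every library that received EpA lay above every library that did not. The EpA and combined groups overlapped with each other, as did the DMSO and fatostatin groups.

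The *H19* means were 0.0400 ± 0.026 FPKM (SD, n = 3) in the DMSO group, 0.286 ± 0.089 in the EpA group, 0.0753 ± 0.0097 in the fatostatin group and 0.253 ± 0.097 in the combined group. Summed over each group, 86 reads with EpA stood against 12 with DMSO, a ratio of 7.10 after library size (11.3 without DMSO replicate 2, which held 7 of the 12 reads), and 78 reads with both compounds against 23 with fatostatin, a ratio of 3.38. On the log2(FPKM + 0.1) scale the differences were 1.45 ± 0.26 (SE) and 0.97 ± 0.26. Both are a description, since *H19* was chosen for its rise with EpA and the rule does not say in which of these comparisons. The log2 values depended on the added constant, 0.1 FPKM being above the DMSO level of *H19*. The second difference was 0.22 with a constant of 1 and 1.63 with limma voom on reads, and 0.78 without replicate 2 of the combined group, its highest.

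Myeloid markers were also near 0. *Lyz2*, *Itgam*, *Adgre1*, *Csf1r* and *Cd14* summed to 0.0533 to 0.153 FPKM with DMSO, 0.213 to 0.352 with EpA, 0.216 to 0.340 with fatostatin and 0.378 to 0.575 with both, and *Lyz2*, *Adgre1*, *Csf1r* and *Cd14* were at 0 in at least 1 library. *Lyz2* had means of 0.0371 FPKM with DMSO, 0.186 with EpA, 0.200 with fatostatin and 0.224 with both, while *Itgam* ran from 0.0406 with DMSO through 0.0259 and 0.0275 to 0.0112 with both. The NK cell markers *Ncr1* and *Klrb1c* summed to 0.0078 to 0.048, 0.042 to 0.085, 0.017 to 0.040 and 0.061 to 0.066 FPKM in the same order of groups. *Ncr1* had means of 0.0106, 0.0422, 0.0107 and 0.0412 FPKM, and *Klrb1c* of 0.0142, 0.0221, 0.0211 and 0.0220. The erythroid markers *Hbb-bs*, *Hba-a1* and *Alas2* summed to 0.193 to 0.393, 0.118 to 0.693, 0.207 to 0.316 and 0.346 to 0.439 FPKM. The part of other cells in the *H19* value was not tested.

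*H19* lies at chr7:142575529-142578143 on the minus strand of GRCm38, in 3 exon blocks of 2460 bp together. Of the 13 annotated genes within 100 kb, 4 were tested, and its imprinted partner *Igf2*, which encodes insulin-like growth factor 2, was under the minimum level. *Lsp1*, a leukocyte protein gene 80662 bp away, fell with EpA (log2 difference −0.29, adjusted p = 2.77e-05) and rose with fatostatin (0.35, adjusted p = 1.4e-05), a pattern unlike that of *H19*. *Mrpl23*, *Prr33* and *Tnnt3* did not pass the test in any comparison.

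Of 25 other imprinted genes, 12 were tested, and 1 rose and 1 fell with EpA, where 27.4% of all genes were called. Their median log2 difference with EpA was −0.07 against 0.00 for all genes. *Plagl1*, a zinc finger gene of the imprinted network, rose with EpA from 1.01 to 1.35 FPKM (adjusted p = 0.00331) and rose again when fatostatin was added, to 1.68 FPKM (0.30 ± 0.078, adjusted p = 0.0239). *Igf2r*, the receptor that clears IGF2, fell with EpA from 14.5 to 12.3 FPKM (adjusted p = 0.000574) and rose with fatostatin to 17.1 FPKM (adjusted p = 0.0013). With fatostatin 1 of the 12 rose, with fatostatin added to EpA 3 rose, and with EpA added to fatostatin 1 rose and 1 fell, against 14%, 16% and 29.5% of all genes called. With fatostatin added to EpA the list's median was 0.17 against 0.01 for all genes.

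The genes that followed *H19* most closely over the 12 libraries were *Fastkd1* (r = 0.987), *Maoa* (r = 0.958), *Nop58* (r = 0.952), *Usp15* (r = 0.945) and *Nop16* (r = 0.944), among 10298 genes. *Fastkd1*, a mitochondrial RNA regulator, was at 1.30 FPKM with DMSO, 1.83 with EpA, 1.40 with fatostatin and 1.78 with both. *Maoa*, which encodes monoamine oxidase A, was at 2.67, 3.93, 2.80 and 3.72 FPKM in the same order. Both were about as high with both compounds as with EpA, which is the shape of *H19*, at a smaller scale. Since the groups differ strongly, much of each r reflects the group means.

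Among the snoRNA hosts, *Gas5* was slightly lower in both groups that received EpA. *Gas5* was at 61.6, 64.2 and 62.9 FPKM with DMSO and at 60.1, 59.2 and 59.0 FPKM with EpA. With fatostatin it was at 62.3, 62.0 and 63.4 FPKM, and with both compounds at 56.0, 60.0 and 59.5 FPKM. The groups with EpA did not overlap with their controls, and the means differed from them by −5.45% and −6.48%.

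*Gas5* fell by 0.08 on the log2 scale with EpA against DMSO (SE 0.026, adjusted p = 0.0415, limma) and by 0.10 when EpA was added to fatostatin (adjusted p = 0.0162). The first call was lost in 8 of 21 alternatives, among them the omission of any 1 of 7 libraries, with an adjusted p of 0.139 without DMSO replicate 2, 0.0933 without DMSO replicate 3, 0.0631, 0.101 and 0.113 without EpA replicates 1, 2 and 3, and 0.0518 and 0.0529 without fatostatin replicates 1 and 2. The second was lost in 2 of 21, without fatostatin replicate 3 (adjusted p = 0.0581) and in a fit of these groups alone (0.0597). Fatostatin gave differences of −0.01 against DMSO and −0.02 when added to EpA, with 95% intervals of −0.07 to 0.05 and −0.08 to 0.03.

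*Snhg12* was higher where EpA was added to fatostatin. *Snhg12* was at 11.8, 10.7 and 11.9 FPKM with DMSO and at 12.1, 11.7 and 12.1 FPKM with EpA, ranges that overlapped. It was at 10.5, 10.6 and 11.02 FPKM with fatostatin and at 11.8, 12.02 and 12.6 FPKM with both compounds, ranges that did not. *Snhg12* rose by 13.3% in the latter comparison (log2 difference 0.18 ± 0.042, adjusted p = 0.00768). For EpA against DMSO the difference was 0.07 (adjusted p = 0.277, 95% interval −0.02 to 0.16), and the EpA effects differed by 0.11 (adjusted p = 0.719, 95% interval −0.02 to 0.24). Fatostatin against DMSO gave −0.09 (adjusted p = 0.190), which became −0.14 (adjusted p = 0.0332) without DMSO replicate 2, the lowest of its group.

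Many snoRNA hosts belong to the RNAs that begin with a run of pyrimidines, the motif through which cells couple translation to growth. The 30 bases around their RefSeq starts are shown, 10 before the start and 20 from it on, with capitals for a run of C and T that begins at the start.
*Gas5*, chr1:161035156-161035185, plus strand: ccatctcagcCTTTCggagctgtgcggcat
*Snhg12*, chr4:132308668-132308697, plus strand: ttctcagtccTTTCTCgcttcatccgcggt
*Gas5*, second start, chr1:161034591-161034620, plus strand: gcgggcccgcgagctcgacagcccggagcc
The runs were 5 bases for *Gas5* and 6 for *Snhg12*, and the second annotated *Gas5* start had none. A run of at least 5 stood at the start of 4.43% of 32544 RefSeq promoter windows (1442). The exons counted for *Gas5* covered 91.3% of the gene, chr1:161034422-161038539, and those of *Snhg12* all of chr4:132308623-132311024. Most intron sequence, the snoRNA stretches included, thus lay on annotated exons of both genes. The snoRNAs are also annotated as genes of their own, and those with values had a mean of 0 FPKM. Whether reads in these stretches were counted with the hosts is not known.

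Other snoRNA hosts did not all behave like *Gas5*. Of the 15 hosts tested, *Gas5* and *Snhg12* included, 3 rose and 2 fell with EpA, and 4 rose and 1 fell when EpA was added to fatostatin, against 27.4% and 29.5% of all genes called. Their medians were 0.03 and 0.09, against 0.00 and 0.01 for all genes. *Zfas1* rose from 28.4 to 35.3 FPKM with EpA (0.31 ± 0.038, adjusted p = 0.000119) and *Snhg6* from 13.2 to 16.3 FPKM (0.30 ± 0.061, adjusted p = 0.0039), and both rose again with EpA added to fatostatin, by 0.37 (adjusted p = 2.61e-05) and 0.52 (adjusted p = 7.52e-05). *Snhg16* fell by 0.20 with EpA (adjusted p = 0.0334). *Snhg15* rose with each compound, to 9.53 FPKM with EpA and 9.65 with fatostatin from 8.38 with DMSO, and to 12.2 FPKM with both. With fatostatin 1 host rose and 3 fell, *Snhg5* by 0.27 (adjusted p = 0.00106), and with fatostatin added to EpA 1 rose and 1 fell, against 14% and 16% of all genes called.

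The genes of the proteins that bind the snoRNAs mostly rose with EpA at the RNA level. Of 10 snoRNP genes, 9 rose and 0 fell with EpA against DMSO, and 10 rose and 0 fell when EpA was added to fatostatin, where 14.3% and 16.2% of all genes tested rose. The median log2 differences were 0.20 and 0.17, against 0.00 and 0.01 over all genes. *Nhp2*, of the H/ACA complex, rose from 100.5 to 121 FPKM with EpA (0.27 ± 0.032, adjusted p = 0.000103), and the snoRNP assembly protein gene *Nolc1* from 62.3 to 74.1 FPKM (0.25 ± 0.016, adjusted p = 1.09e-06). *Nop58*, of the C/D complex, and *Dkc1*, the pseudouridine synthase, rose by 0.25 (adjusted p = 1.02e-05) and 0.23 (adjusted p = 1.02e-05). With fatostatin against DMSO 1 rose and 2 fell, and with fatostatin added to EpA 1 fell, against 14% and 16% of all genes called.

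Nonsense-mediated decay, the pathway that degrades *Gas5* RNA when it is translated, showed little change in the RNA levels of its factors. Of 10 genes, 0 passed the test in either direction with EpA against DMSO, where 27.4% of all genes did, with a median of 0.02 against 0.00. In the other 3 comparisons 1 or 2 passed, against 14%, 16% and 29.5% of all genes. *Upf3b* rose (0.19, adjusted p = 0.00165) and *Smg5* fell by 0.11 (adjusted p = 0.0398) with fatostatin. *Upf1*, the helicase of the pathway, rose by 0.08 when fatostatin was added to EpA (adjusted p = 0.0292), and *Smg5* rose by 0.12 when EpA was added to fatostatin (adjusted p = 0.0108).

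**Figure D3:**
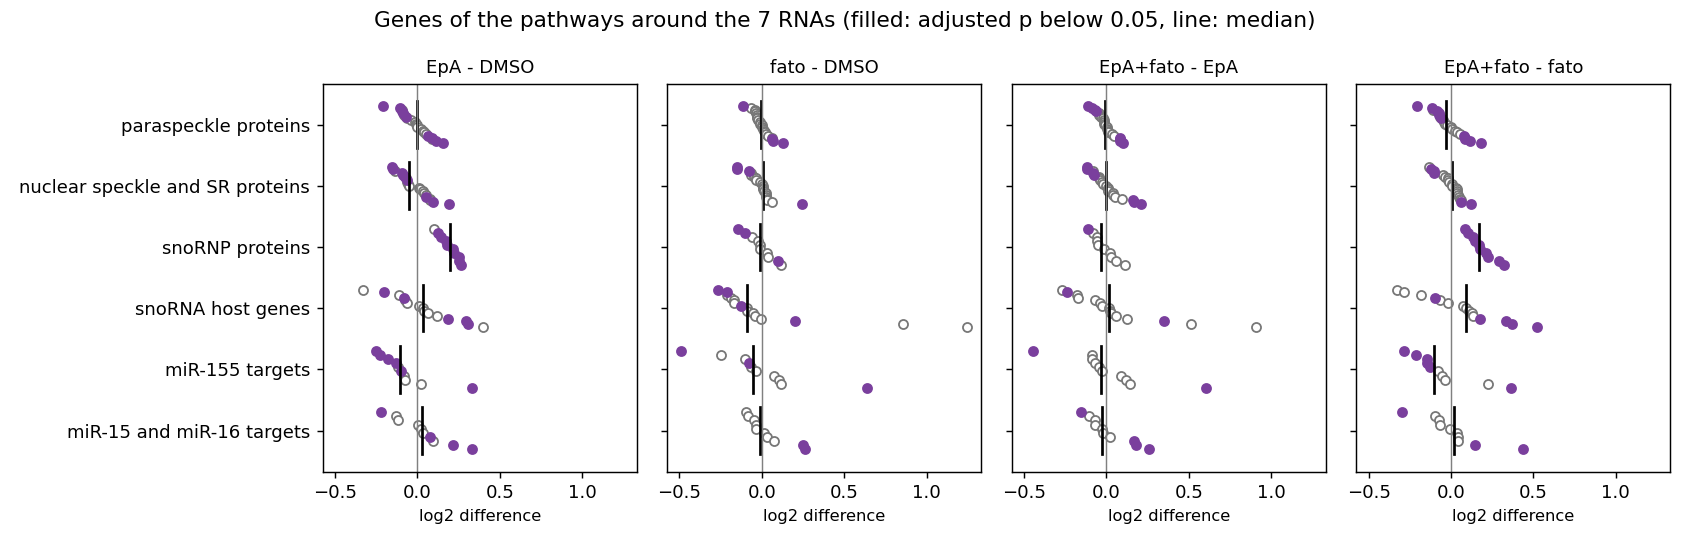
Log2 differences (horizontal axes, log2(FPKM + 0.1) scale) of the genes of 6 lists (vertical axis) in the 4 comparisons (panels), with filled points for an adjusted p below 0.05 and a line for the list's median. The snoRNP protein genes lay to the right of 0 in both comparisons of EpA with its control, with medians of 0.20 and 0.17, and the miR-155 targets mostly to the left, with medians of −0.11 and −0.10.

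*Mir155hg*, the host of miR-155, showed the clearest change among the 5 RNAs tested throughout. *Mir155hg* was at 32.3, 31.9 and 33.1 FPKM with DMSO and at 50.5, 48.9 and 52.6 FPKM with EpA. With fatostatin it was at 43.1, 41.3 and 45.2 FPKM, and with both compounds at 68.4, 69.9 and 67.6 FPKM. No 2 groups overlapped, and the order was DMSO, fatostatin, EpA and both.

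*Mir155hg* rose 1.56-fold with EpA against DMSO in the ratio of means, from 32.4 ± 0.61 to 50.7 ± 1.9 FPKM (log2 difference 0.64 ± 0.034, adjusted p = 2.49e-07, limma). It rose 1.33-fold with fatostatin, to 43.2 ± 1.9 FPKM (0.41 ± 0.034, adjusted p = 1.26e-05). The combined group reached 68.6 ± 1.1 FPKM, 1.35-fold above EpA (0.44, adjusted p = 6.93e-06) and 1.59-fold above fatostatin (0.67, adjusted p = 1.47e-07). The effect of EpA with fatostatin differed from that without it by 0.03 ± 0.049 (adjusted p = 0.957, 95% interval −0.08 to 0.13). A level higher with each compound and higher still with both, with no overlap, was found in 357 of the 13733 genes tested (2.6%). The gene lies at chr16:84703167-84715245 on the plus strand, and 1433 bp of its 12079 bp were counted as exon, the miR-155 hairpin among them.

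Genes known as targets of miR-155 mostly lay lower with EpA. Of 10 tested, 1 rose and 5 fell with EpA against DMSO, where 13.1% of all genes fell, and 1 rose and 5 fell when EpA was added to fatostatin, where 13.3% did. *Peli1*, a ubiquitin ligase gene of T cells, fell from 9.39 to 8.01 FPKM (−0.23 ± 0.045, adjusted p = 0.00328) and *Ets1*, a T cell transcription factor gene, from 96.8 to 85.5 FPKM (−0.18 ± 0.019, adjusted p = 4.16e-05). *Jarid2*, a partner of the Polycomb complex PRC2, rose from 4.03 to 5.09 FPKM (0.33 ± 0.054, adjusted p = 0.000831).

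With fatostatin, where *Mir155hg* also rose, 1 of the targets rose and 2 fell, and with fatostatin added to EpA 1 rose and 1 fell, against 14% and 16% of all genes called. *Ikbke*, an inflammatory kinase gene, moved in opposite directions with the compounds, from 5.57 FPKM with DMSO to 4.66 with EpA (adjusted p = 0.000772) and 8.72 with fatostatin (adjusted p = 1.22e-06). *Maf*, a transcription factor gene of *Il4* and *Il10* expression, fell from 16.7 FPKM with DMSO to 11.9 with fatostatin (−0.49 ± 0.028, adjusted p = 5.12e-07) and was at 15.8 with EpA (adjusted p = 0.0527). Whether the targets moved because of miR-155 was not tested.

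*Dleu2*, the host of miR-15a and miR-16, was slightly lower in both groups that received EpA. *Dleu2* was at 2.16, 2.04 and 2.12 FPKM with DMSO and at 1.85, 1.86 and 1.83 FPKM with EpA. With fatostatin it was at 2.08, 2.04 and 2.05 FPKM, and with both compounds at 1.85, 1.83 and 1.66 FPKM. Every library with EpA lay below every library without it, and the means differed by −12.6% from DMSO and by −13.5% from fatostatin.

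*Dleu2* fell by 0.18 on the log2 scale with EpA (SE 0.059, adjusted p = 0.0374, limma) and by 0.20 when EpA was added to fatostatin (adjusted p = 0.0238). Both calls depended on single libraries and were lost in 10 and 5 of 21 alternatives. The first was lost without DMSO replicate 1 (adjusted p = 0.111) or 3 (0.0942), without EpA replicate 1 (0.0839), 2 (0.0739) or 3 (0.0952), and without fatostatin replicate 2 (0.0503) or 3 (0.0506). The second was lost without fatostatin replicate 1 (adjusted p = 0.0623), 2 (0.0516) or 3 (0.0576), and without replicate 3 of the combined group (0.0910). Fatostatin gave −0.04 against DMSO (95% interval −0.16 to 0.09). *Dleu2* lies at chr14:61602839-61682373 on the minus strand, and the overlapping genes *Trim13* and *Kcnrg* on the other strand shared 0 exonic bases with it, while the noncoding gene *Gm26916* on the other strand shared 352. The strand setting of the counting is not given in the sources used here, so reads in the latter stretch cannot be assigned to a strand. The same holds for 453 bases that *Malat1* shared with *Gm37376* on the other strand, and for the 71 and 70 bases that *H19* shared with *Gm27483* and *Gm27786*.

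The cell cycle and survival genes known as targets of miR-15 and miR-16 moved both ways. Of 10, 3 rose and 1 fell with EpA, 2 rose with fatostatin, 3 rose and 1 fell when fatostatin was added to EpA, and 2 rose and 1 fell when EpA was added to fatostatin. Over all genes 27.4%, 14%, 16% and 29.5% were called, and the list's median with EpA was 0.03 against 0.00. *Ccnd2*, which encodes cyclin D2, rose from 48.6 to 61.2 FPKM with EpA (0.33 ± 0.025, adjusted p = 3.47e-06). *Bcl2*, the survival gene first linked to these microRNAs, fell from 22.3 to 19.2 FPKM with EpA (−0.22 ± 0.031, adjusted p = 0.000311) and rose to 26.6 FPKM with fatostatin (adjusted p = 0.000232).

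Of the 11 microRNA hosts on the list, all in the table, 4 passed the minimum level, *Mir155hg*, *H19*, *Dleu2* and *Mir22hg*. *Mir22hg* rose when EpA was added to fatostatin, from 1.69 ± 0.38 to 2.59 ± 0.28 FPKM (0.60 ± 0.18, adjusted p = 0.0237). The genes of factors that process microRNAs changed little, with 2 of 14 rising with EpA. These were *Ran*, of the nuclear transport GTPase, by 0.15 (adjusted p = 0.00166) and *Drosha*, of the nuclear RNase that cuts the hosts, by 0.14 (adjusted p = 0.0228). Their median log2 difference with EpA was −0.04 against 0.00 for all genes. With fatostatin 1 fell (*Ran*, by 0.11, adjusted p = 0.0162), with fatostatin added to EpA 1 rose (*Ago2*, 0.20, adjusted p = 0.0200), and with EpA added to fatostatin 3 rose and 1 fell. Over all genes 27.4% were called with EpA, 14% with fatostatin, 16% with fatostatin added to EpA and 29.5% with EpA added to fatostatin.

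Genes known as targets of the miR-17-92 cluster are given here although its host was not analysed here. Of 10, 2 rose and 2 fell with EpA, 3 rose and 1 fell with fatostatin, 4 rose and 1 fell with fatostatin added to EpA, and 2 rose and 2 fell with EpA added to fatostatin. The shares of all genes called were 27.4%, 14%, 16% and 29.5% in this order, and the list's median with EpA was −0.01 against 0.00. *Cdkn1a*, which encodes the cell cycle inhibitor p21, rose from 26.2 FPKM with DMSO to 52.2 with EpA and 52.2 with fatostatin, and to 87.2 with both. *Bcl2l11*, the gene of the death protein BIM, fell by 0.35 with EpA (adjusted p = 0.00349) and rose by 0.50 with fatostatin (adjusted p = 0.000568).

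Counted over the 5 RNAs tested in every comparison, 1 rose and 2 fell with EpA against DMSO, where 27.4% of all genes were called, and 1 (*Mir155hg*) was also past 1.5-fold, where 3.38% of all genes were. With fatostatin 1 rose, where 14% of all genes were called and 7.69% rose, and with fatostatin added to EpA 1 rose, where 16% were called and 9.22% rose. With EpA added to fatostatin 2 rose and 2 fell, where 29.5% of all genes were called. *Mir155hg* was the RNA that rose in all 4, and it passed 1.5-fold also with EpA added to fatostatin, as 3.75% of all genes did, but not in the fatostatin comparisons, where 1.86% and 1.99% did. Libraries of the compared groups did not overlap for 4 of the 5 RNAs with EpA against DMSO and with EpA added to fatostatin, against 42.4% and 41.4% of all genes, and for 1 of the 5 with fatostatin against DMSO and with fatostatin added to EpA, against 31.3% and 33.3%. For 0 of the 5 RNAs did the EpA effect depend on fatostatin in the limma test, and 0 of the 5 had an unadjusted p below 0.05 there, where 7.89% of all genes had one.

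**Figure D4:**
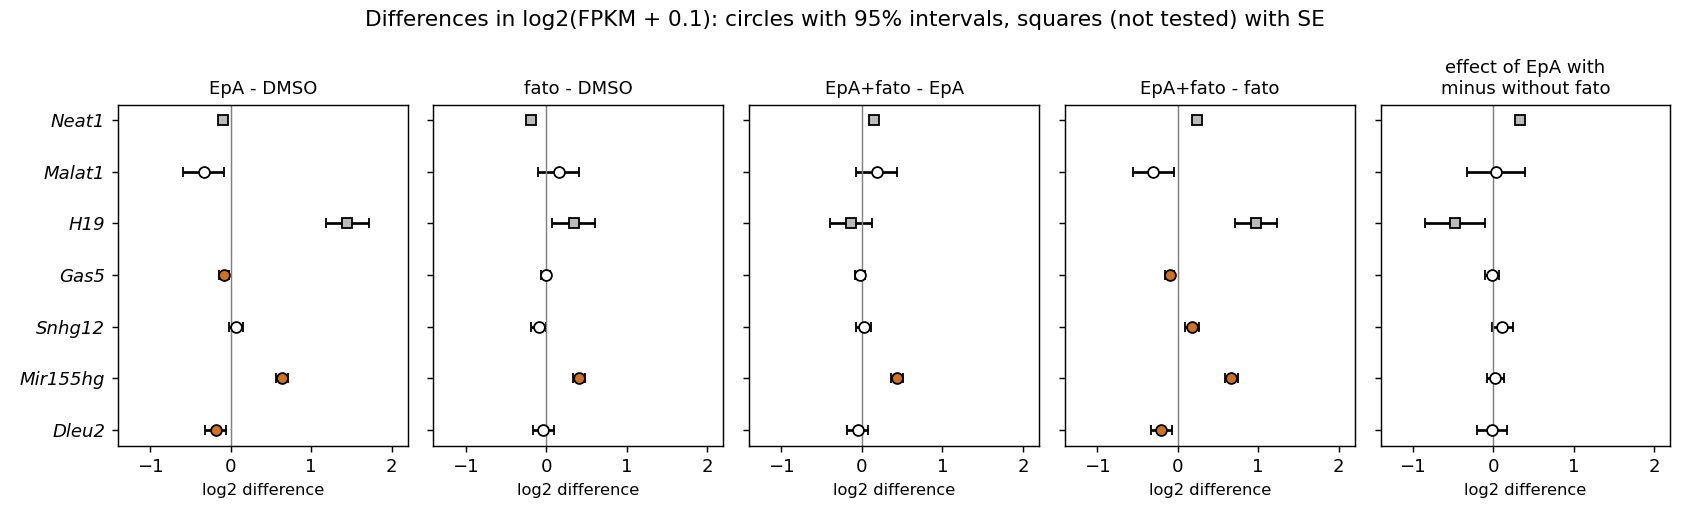
Differences in log2(FPKM + 0.1) (horizontal axes) of the 7 RNAs (vertical axis) in the 4 comparisons and in the contrast of the EpA effects (panels), from the limma fit over all 12 libraries, with bars for 95% intervals around circles. Grey squares with SE bars are *Neat1* and *H19*, given as a description without a test, filled circles have an adjusted p below 0.05 and open circles do not, and *Mir155hg* is filled in the first 4 panels.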

How the data were processed

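The deposited table held FPKM, which the authors made per the study's methods by trimming reads with Trim Galore, aligning them with HISAT2 to GRCm38 and counting genes with featureCounts. The annotation release and the strand setting are not given in the sources used here. The table had 32352 lines, of which 301 repeated a gene and were collapsed. With exon lengths of GENCODE M21, which matched 32003 genes (99.9%), 98.4 to 98.6% of values came out as whole reads within 0.05 read, from which depth and reads per gene were taken. A gene of 1 kb with 1 read had 0.0225 to 0.0273 FPKM.

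The main test was limma 3.58.1 (R 4.3.3) on log2(FPKM + 0.1), 1 fit over all 4 groups with a mean-variance trend, for 13733 genes averaging 0.1 FPKM or more. Two-sided p-values carry a Benjamini-Hochberg adjustment across all of these. Group differences were set against spread over libraries, and an exact permutation test of 3 against 3 cannot go below p = 0.1, so none was run. The fit was tested on simulated counts, where 91% of genes changed 1.5-fold and 15% of genes changed 1.15-fold were found for EpA against DMSO (13614 genes), 97% and 9% for fatostatin against DMSO (13651 genes), and 83% and 4% for the contrast of the EpA effects (13612 genes). A test planned for *H19* is not reported, since the rule may have used its values. Single results on a few listed or neighbouring genes are not reported here.

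Members and lists were chosen with earlier results of these data known. Named list genes were the up to 4 largest changes per comparison with an adjusted p below 0.05 and a mean of at least 1 FPKM. Alternatives changed the added constant, the minimum level, the scaling, the samples fitted, the replicate block and the tool (limma voom on recovered reads), and left out each library in turn. Sequences were read from RefSeq tables.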

Additional observations from a re-analysis of the deposited data

Results flagged for a closer look

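The effect of EpA on *Neat1* was opposite in direction with and without fatostatin, and the effects differed by 0.33 on the log2 scale. All 3 EpA libraries lay below the DMSO libraries and all 3 libraries with both compounds lay above the fatostatin libraries. The difference was not tested, since *Neat1* was chosen for it.

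*Cdkn1a*, on the list of miR-17-92 targets, rose less with EpA when fatostatin was present. The effect was 0.99 against DMSO and 0.74 against fatostatin, a difference of −0.25 ± 0.031 (adjusted p = 0.0372, limma), 1 of 6 genes called in that contrast. The sign held in 20 of 20 alternatives, from −0.27 to −0.24, but the call was lost in 13 of them (adjusted p from 0.00267 to 0.147 over the 20). It was lost without any 1 library except fatostatin replicate 1 (adjusted p from 0.0503 to 0.147 in these 11), with the replicate block (0.0638) and with median-ratio scaling (0.0505).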

How the results depend on the processing

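Of 629 values of the tested RNAs and counts under other settings, 572 kept their direction and their side of the threshold or, for counts, stayed within 1.5-fold. The count of the 5 RNAs past the test for EpA against DMSO was 3, and it was 1 with no minimum FPKM or with a 1.5-fold threshold and 1 to 4 when single libraries were left out. It fell to 1 without DMSO replicate 3, any EpA replicate or fatostatin replicate 2. For fatostatin against DMSO the count was 1, 0 with the 1.5-fold threshold and 1 to 2 with single libraries left out. With fatostatin added to EpA it was 1, and 0 with the 1.5-fold threshold. With EpA added to fatostatin it was 4, 2 when only these groups were fitted, 1 with the 1.5-fold threshold and 2 to 5 with single libraries left out, the lowest without fatostatin replicate 3. The *H19* difference ranged there from 0.78 to 1.18 with single libraries left out, and from 0.22 to 1.63 over all alternatives. For EpA against DMSO its log2 difference was 0.30 with an added constant of 1, 2.63 with 0.01 and 2.78 with voom, and it could not be tested at a minimum mean of 1 FPKM. Differences near 0 changed sign when single libraries were left out. *Gas5* ranged from −0.022 to 0.0069 for fatostatin against DMSO and from −0.043 to 0.0069 for both against EpA, where *Snhg12* ranged from −0.0087 to 0.040 and *H19* from −0.34 to 0.070. In the difference between the EpA effects, *Malat1* ranged from −0.14 to 0.13, *Gas5* from −0.035 to 0.015, *Mir155hg* from −0.0056 to 0.059 and *Dleu2* from −0.044 to 0.029. The cause was not tested.

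The labels do not say whether equal replicate numbers pair the samples. Correlations of deviations for the same number ran from −0.0472 to 0.0744, and for other numbers from −0.0859 to 0.0492. Correlations this weak cannot exclude a shared mouse or culture. With the replicate block the count for EpA against DMSO was 2, *Dleu2* having an adjusted p of 0.0545, and that for EpA added to fatostatin stayed at 4. In the difference between the EpA effects, 6 genes were called over the whole table, 20 with voom, 1 with values rescaled to TPM, 0 with the block or median-ratio scaling, and 0 to 2 with single libraries left out (0 in 10 of 12 omissions). Depth limits *H19* most, with 2 to 7 reads per DMSO library.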

Other observations

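Of the 537 long noncoding RNA genes tested, 25 rose and 47 fell with EpA against DMSO, 4.66% and 8.75%, against 14.3% and 13.1% of all genes. With fatostatin against DMSO 25 rose and 7 fell, 4.66% and 1.30%, against 7.69% and 6.31% of all genes. When it was added to EpA 36 rose and 4 fell, 6.70% and 0.745%, against 9.22% and 6.79%. The class medians were −0.06 with EpA, 0.07 with fatostatin and 0.12 with fatostatin added to EpA, against 0.00, 0.01 and 0.01 for all genes. With EpA added to fatostatin, 35 rose and 39 fell, 6.52% and 7.26%, against 16.2% and 13.3%.

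Of 24 other known long noncoding RNAs, 13 were tested. With EpA 2 rose, with fatostatin 1 rose and 1 fell, with fatostatin added to EpA 2 rose, and with EpA added to fatostatin 2 rose, against 27.4%, 14%, 16% and 29.5% of all genes called. *Pvt1*, a neighbour of *Myc*, was at 0.942 ± 0.083 FPKM with DMSO and 0.971 ± 0.037 with EpA, and rose to 1.54 ± 0.13 with fatostatin (0.66, adjusted p = 0.00146, limma) and 1.54 ± 0.20 with both.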
